A study of Mus musculus with 6 samples.

Results

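Molecular chaperones and the folding enzymes that work beside them were examined in NIT-1 cells, a mouse pancreatic beta cell line, after 24 h with 4 µmol/L cadmium sulphate (CdSO4) and after 24 h in culture medium without it, each following 24 h in 6-well plates. The genes were taken by symbol: the J-domain families Dnaja, Dnajb and Dnajc, the chaperonin genes Cct and Hspd, the Hspa, Hspb and Hsp90 families, the Bag co-chaperones and the peptidyl-prolyl isomerase families Fkbp and Ppi, without pseudogenes and without Hspb1, Hspb8, Bag3 and Hspa5. Of 18884 genes named on the arrays, 58 met this rule. Each group had 3 arrays of biotin-labelled total RNA, called biological replicates in the labels, which do not say whether the cultures came from separate passages or days. The p-values therefore set each difference only against the spread among these 3 cultures a group, estimated partly from all genes.

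A further 56 mouse genes meet the rule by name and were not analysed here. For 6 of them (Dnaja1, Dnajc19, Cct6a, Hsp90aa1, Ppia and Ppih) the probe carried the symbols of several genes, and for 50 no probe was named. No Hsp90 gene and none of the heat-inducible Hspa1 genes is therefore among the members. The symbol rule also brings in 4 genes outside these protein families by function: Ppip5k1 and Ppip5k2, which encode inositol pyrophosphate kinases, Hspb11, a subunit of intraflagellar transport, and Hspbp1, a co-chaperone of Hsp70 and no small heat shock protein.

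In the cytosol, newly made or damaged proteins are handed by J-domain proteins to Hsp70, whose ATPase they stimulate, and are released when exchange factors such as Bag proteins and the Hsp110 group replace ADP with ATP. Clients can pass on to Hsp90 with its isomerase co-chaperones, to the ring-shaped chaperonin CCT, or, in mitochondria, to Hsp60. Cadmium binds thiol groups of proteins, and heat shock factor is known to raise transcription of cytosolic chaperone genes when misfolded proteins accumulate, by binding inverted repeats of the bases GAA. Beta cells, which make insulin in bulk, depend in addition on the separate chaperone set of the endoplasmic reticulum (ER).

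Values are the authors' deposited signals on a scale taken as log2, and a change is cadmium minus control. Over all genes the median change was 0.044, and the medians of all transcript clusters on the 3 cadmium arrays all lay above those of the controls, by 0.049 on average, so small increases rest partly on this offset. Signals correlated across genes at 0.995 to 0.997 within each group and 0.987 to 0.991 between groups. Cadmium replicate 1 and control replicate 3 were separated from the remaining 4 along principal component 2, which held 15.6% of the variance. Both lay on the same side of it, at 11.6 and 12.4, and what they shared was not tested. The 95th percentile of the negative control probes averaged 6.18 and serves as an approximate background bound. Both group means lay above it for 13 of the 58 members, 1 did for 3, and neither did for 42. The 9 measured beta cell markers all lay below it in both groups, among them Ins2 at 5.29 ± 0.04 in cadmium and 5.27 ± 0.10 in control cells (SD, n = 3 each), so the label could not be checked well against them. The sum of their log2 signals was 37.5 to 37.7 on the cadmium arrays and 36.2 to 37.3 on the control arrays. Of the 9, 1 was higher (Kcnj11), and the part of this in the results was not tested. Of markers of other cells, 1 of 3 stromal, endothelial and immune genes fell (Col3a1, at 8.06 ± 0.17 in cadmium and 9.07 ± 0.13 in control cells), 1 of 4 exocrine genes rose (Cela2a), and Gcg and Ghrl did not pass. Sums of log2 signals on cadmium and control arrays were 15.2 to 15.5 and 16.2 to 16.4 for the stromal, endothelial and immune list. They were 16.9 to 17.2 and 16.4 to 16.8 for the exocrine list, and 7.02 to 7.12 and 7.10 to 7.21 for Gcg with Ghrl. The part of these cell types in the results was not tested either. In RNA from whole cultures, fewer cells of a type and less RNA per cell cannot be told apart.

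With cadmium, 10 of the 58 genes rose and 3 fell at a limma adjusted p under 0.05. In the same fit 6.47% of all genes were called higher and 5.72% lower, and among protein-coding genes 4.94% and 8.32%. The share of members called higher was 17.2% and of those called lower 5.17%. The increases lay in the cytosolic J-domain genes Dnajb1, Dnaja4, Dnaja2 and Dnajb2, the Hsp70-family genes Hspa4l and Hspa8, the mitochondrial chaperonin gene Hspd1, the immunophilin genes Fkbp4 and Fkbp1a, and Bag1. The decreases were in Fkbp7 and Dnajc10, whose proteins reside in the ER, and in Ppip5k2, which is no chaperone gene. The median change over the 58 members was 0.077, against 0.044 over all genes. At an unadjusted p under 0.05 17 members were higher and 9 lower, where 17.6% of all genes were higher and 11.4% lower. All cadmium arrays lay above all control arrays for 25 members, where 22.9% of all genes did so, and below for 8, where 13% did.

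**Figure D1:**
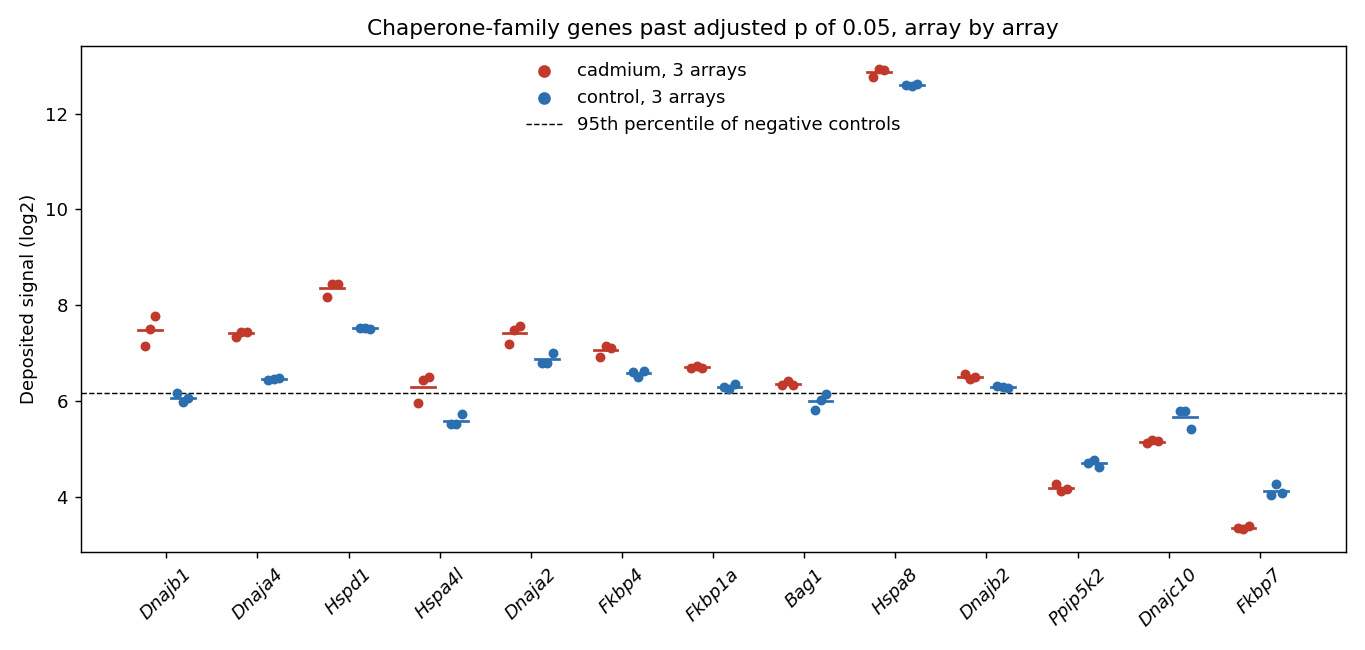
Deposited log2 signal (vertical axis) of the 13 members past the threshold on each array, cadmium (red, left of each pair) and control (blue, right), with the group mean as a bar and the background bound of 6.18 as a dashed line. The groups do not overlap for any of the 13 genes, and Fkbp7, Dnajc10 and Ppip5k2 lie below the bound in both groups.

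Dnajb1, the main stress-inducible J-domain partner of cytosolic Hsp70, had the largest change of the 58. Its signal was 7.15, 7.51 and 7.77 on the cadmium arrays and 6.18, 5.98 and 6.07 on the control arrays, a mean of 7.48 ± 0.31 in cadmium and 6.07 ± 0.10 in control cells (SD, n = 3 each). The change was 1.40 ± 0.15 (SE; adjusted p = 0.0019). It ranked 31st from the top among all genes, and with the control mean below the bound it amounts to at least 2.45-fold. For such a fold the dimmer group's arrays were raised, where dimmer, to the 95th percentile of the negative controls on that array, and every fold here assumes that the scale is log2.

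The class A J-domain genes measured here were both higher. Dnaja4 encodes a cytosolic class A protein and was at 7.34, 7.45 and 7.45 with cadmium, against 6.43, 6.47 and 6.49 in control cells. The 3 arrays of each group differed by far less than the groups, with a change of 0.95 ± 0.05 (SE; adjusted p = 0.00093), or 1.93-fold. Dnaja2, a constitutive partner of the cognate Hsp70, was at 7.20, 7.48 and 7.57 with cadmium, against 6.80, 6.80 and 7.02 in control cells. The gap between the lowest cadmium and the highest control array was smaller here than the range within either group, and the change was 0.55 ± 0.11 (SE; adjusted p = 0.020), or 1.46-fold. Its call was lost without cadmium replicate 2, cadmium replicate 3, control replicate 1 or control replicate 2, at adjusted p of 0.067 to 0.078.

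Among the other 8 Dnajb genes, 1 more passed. Dnajb2, a J-domain protein with ubiquitin-binding motifs that is abundant in neurons, was at 6.56, 6.47 and 6.51 with cadmium, against 6.31, 6.29 and 6.27 in control cells, a narrow but complete separation. Its change was 0.22 ± 0.05 (SE; adjusted p = 0.030), which was lost when any 1 of the 6 arrays was left out (0.058 to 0.098) and with each array centred on its median (0.062). The 7 others changed by -0.09 to 0.26. Dnajb6, a strong suppressor of protein aggregation, was at 6.32 ± 0.07 in cadmium and 6.42 ± 0.05 in control cells (adjusted p = 0.34). Dnajb4, a cytosolic relative of Dnajb1, was at 2.66 ± 0.03 in cadmium and 2.54 ± 0.05 in control cells (adjusted p = 0.19), far below the background bound. The testis-enriched genes Dnajb3, Dnajb8 and Dnajb13 also lay below it. With Dnajc5b and Dnajc5g they made 5 measured of 9 listed, which changed by -0.05 to 0.26 with 0 past the threshold and 1 (Dnajb3) higher at an unadjusted p under 0.05, as were 17.6% of all genes. The 2 probes of Dnajb8 differed in sign, at -0.05 for the brighter and 0.29 for the dimmer.

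The 15 Dnajc genes, whose proteins share the J domain but little else, gave 1 call, a decrease in Dnajc10. It encodes ERdj5, an ER reductase that breaks disulphide bonds of proteins bound for degradation. Dnajc10 was at 5.12, 5.19 and 5.16 on the cadmium arrays and 5.80, 5.81 and 5.43 on the control arrays, so that control replicate 3 lay nearest to the cadmium group. The change was -0.52 ± 0.10 (SE; adjusted p = 0.020). Both means lay below the bound, so no fold is given. The call was lost without cadmium replicate 2, cadmium replicate 3, control replicate 1 or control replicate 2 (0.064 to 0.073), while without control replicate 3 the adjusted p was 0.0018. The other 14 changed by -0.22 to 0.15 with a median of 0.03, and at an unadjusted p under 0.05 1 of them was higher and 2 were lower, against 17.6% and 11.4% of all genes. Dnajc5, the cysteine string protein of secretory vesicles, was at 6.38 ± 0.05 in cadmium and 6.26 ± 0.08 in control cells (adjusted p = 0.24). With Dnajc6 (auxilin, which uncoats clathrin vesicles) and Dnajc13 (an endosomal sorting protein), the 3 vesicle traffic genes changed by -0.09 to 0.12, with 0 past an unadjusted p of 0.05.

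**Figure D2:**
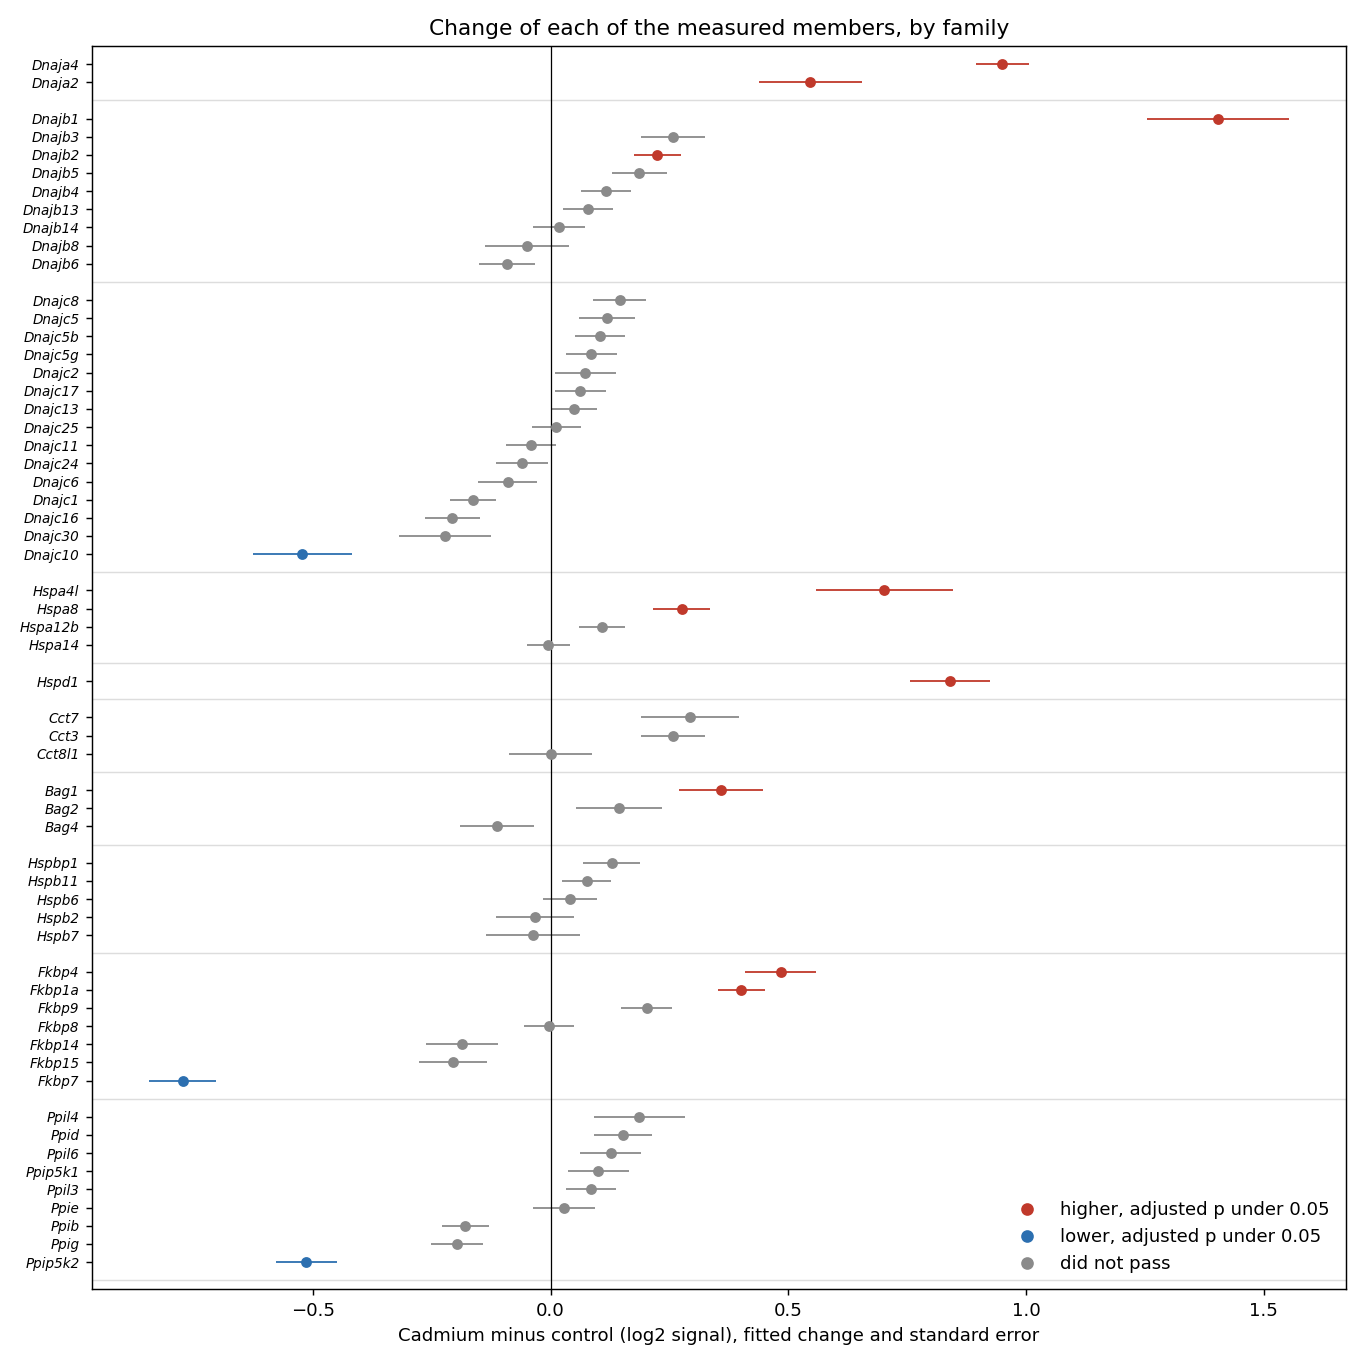
Fitted change with its standard error (horizontal axis, log2 signal, cadmium minus control) for each of the 58 members, grouped by symbol family and sorted within it. Red points passed as higher (10), blue as lower (3) and grey did not pass (45), and the Dnajc genes other than Dnajc10 lie between -0.22 and 0.15.

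Hspa4l is an Hsp110-type nucleotide exchange factor of Hsp70. Its signal was 5.96, 6.44 and 6.50 on the cadmium arrays and 5.54, 5.52 and 5.73 on the control arrays. Cadmium replicate 1 lay between the other cadmium arrays and the controls. The change was 0.70 ± 0.14 (SE; adjusted p = 0.023), at least 1.08-fold, since the control mean was below the bound. Without cadmium replicate 1 it was 0.87 (adjusted p = 0.0035), and the call was lost without cadmium replicate 2, cadmium replicate 3, control replicate 1 or control replicate 2 (0.077 to 0.085).

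Hspa8, the constitutive Hsp70 of the cytosol, was at 12.77, 12.93 and 12.91 with cadmium, against 12.60, 12.57 and 12.61 in control cells, a change of 0.28 ± 0.06 (SE; adjusted p = 0.028). This value is uncertain. All 3 probes that carry only this symbol have identifiers of chromosomes 1 or 6, whereas RefSeq places Hspa8 on chromosome 9, and identifier and RefSeq chromosome matched for 99.8% of all genes. The probes may therefore read copies of the gene as well. They changed alike, by 0.28, 0.28 and 0.30. The call was lost with arrays centred (adjusted p = 0.055), after quantile normalization (a change of 0.03, 0.80), and without any 1 array except cadmium replicate 1 (0.052 to 0.10). The remaining Hspa genes did not pass: Hspa12b changed by 0.11 and Hspa14, of a ribosome-associated chaperone complex, by -0.005.

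Hspd1 encodes Hsp60, the chaperonin of the mitochondrial matrix. It was at 8.17, 8.45 and 8.45 on the cadmium arrays and 7.53, 7.52 and 7.51 on the control arrays. The control arrays were nearly identical and every cadmium array lay well above them. The change was 0.84 ± 0.08 (SE; adjusted p = 0.0017), or 1.79-fold. The adjacent gene Hspe1, which encodes the Hsp10 lid of the same chaperonin, changed by 1.00 ± 0.08 (SE; adjusted p = 0.0015). The 2 other measured members listed as mitochondrial, Dnajc11 and Dnajc30, changed by -0.04 and -0.22 and did not pass.

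The cytosolic chaperonin CCT folds actin and tubulin. Of its subunits Cct7 was at 6.93, 7.04 and 7.07 with cadmium, against 6.58, 6.64 and 6.95 in control cells. Control replicate 3 lay above the lowest cadmium array, so the groups overlapped, and the change of 0.29 ± 0.10 (SE) did not pass (adjusted p = 0.11). Cct3 was at 6.60, 6.73 and 6.67 with cadmium, against 6.40, 6.33 and 6.51 in control cells, without overlap, and missed the threshold at 0.26 ± 0.07 (SE; adjusted p = 0.051). Both passed without control replicate 3 (0.015 for Cct7 and 0.032 for Cct3) and without both arrays that stood apart (0.010 and 0.023), and Cct3 also after quantile normalization (0.039). The related gene Cct8l1 changed by 0.0003.

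Promoter sequences of these genes were searched for the repeats that heat shock factor is known to bind, in RefSeq windows (GRCm38.p6) from 250 bases before to 50 bases after each listed start. The motifs were a run of 3 units that alternate between GAA and TTC with any 2 bases between neighbours, on either strand, and the pairs GAANNTTC and TTCNNGAA, which read alike on both strands and also lie within the longer motif. Of the members 47 had a window. The letters of the 3-unit motif were in a window of 2, Hspd1 among the 9 called higher and Dnajb6 among the 35 not called, and of 0.66% of all genes with a window. Windows are shown in whole for Hspd1, which holds the motif, and for Dnajb1, which had the largest change. For the others the stretch is shown with 20 bases on either side, and motifs are in capitals throughout. Hspd1 and Dnaja4 had 2 windows each, and only the window shown held a motif. Dnajb6 also had 2 windows, and both held the stretch shown. Positions count from the start, with -1 as the base before it, and the capitals of Hspd1 run from -144 to -127. Those of Dnajb6 run from -46 to -34 in 1 window and from -127 to -115 in the other.
Hspd1, chr1:55087883-55088182, minus strand: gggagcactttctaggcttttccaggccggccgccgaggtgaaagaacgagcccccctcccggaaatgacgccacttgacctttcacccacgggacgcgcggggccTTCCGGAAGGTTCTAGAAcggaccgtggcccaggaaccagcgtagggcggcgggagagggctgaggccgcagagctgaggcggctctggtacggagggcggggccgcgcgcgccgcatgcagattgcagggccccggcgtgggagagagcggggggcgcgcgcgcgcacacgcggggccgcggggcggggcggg
Dnajb6, chr5:29735832-29735884, plus strand: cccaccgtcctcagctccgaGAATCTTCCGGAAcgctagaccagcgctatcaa
Dnaja4, chr9:54699449-54699534, plus strand: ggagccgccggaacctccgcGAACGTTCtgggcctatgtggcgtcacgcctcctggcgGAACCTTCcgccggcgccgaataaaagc
Fkbp4, chr6:128438780-128438827, minus strand: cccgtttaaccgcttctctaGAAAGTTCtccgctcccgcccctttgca
Fkbp7, chr2:76673268-76673315, minus strand: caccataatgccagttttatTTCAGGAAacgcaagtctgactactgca
Dnajc10, chr2:80315264-80315311, plus strand: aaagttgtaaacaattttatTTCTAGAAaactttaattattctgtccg
Dnajb1, chr8:83607925-83608224, plus strand: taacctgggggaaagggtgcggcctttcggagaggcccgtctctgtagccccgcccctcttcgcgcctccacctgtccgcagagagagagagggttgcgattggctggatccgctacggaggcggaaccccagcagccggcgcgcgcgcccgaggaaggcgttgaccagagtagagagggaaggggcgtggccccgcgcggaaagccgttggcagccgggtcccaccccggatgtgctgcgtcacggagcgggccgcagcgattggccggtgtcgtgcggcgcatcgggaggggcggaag

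At least 1 of the pair motifs stood in a window of 3 of the 9 genes called higher (Hspd1, Dnaja4 and Fkbp4). It did so for 2 of the 3 called lower (Fkbp7 and Dnajc10) and 6 of the 35 not called. The share was 17.0% of the 27025 RefSeq genes with a window. The pair GAANNTTC occurred in the 3 higher genes and in 5 of the 35 not called, against 9.04% of these RefSeq genes. The pair TTCNNGAA occurred in Hspd1, in the 2 lower genes and in 2 of the 35 not called, against 9.60% of them. In Dnaja4 the pair begins at -90 and at -52. Neither of the 2 windows listed for Dnajb1 contains any of these motifs, which says only that these letters are not there. A match of letters is a description of the sequence and no measurement of binding.

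The immunophilins FKBP and the cyclophilins catalyse the turning of peptide bonds before proline. Fkbp4, the FKBP52 co-chaperone of Hsp90 in steroid receptor complexes, was at 6.93, 7.16 and 7.12 on the cadmium arrays and 6.61, 6.51 and 6.63 on the control arrays. Its change was 0.48 ± 0.07 (SE; adjusted p = 0.0081), or 1.40-fold. Fkbp1a, the receptor of the drugs FK506 and rapamycin, was at 6.69, 6.73 and 6.70 with cadmium, against 6.30, 6.27 and 6.35 in control cells. The arrays within a group were close together, and the change was 0.40 ± 0.05 (SE; adjusted p = 0.0032), or 1.32-fold. Both genes passed with each of the 6 arrays left out in turn.

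Fkbp7 had the largest decrease of the 58 genes. It encodes an ER isomerase that in the mouse binds the ER chaperone BiP. Its signal was 3.36, 3.33 and 3.40 on the cadmium arrays and 4.04, 4.27 and 4.09 on the control arrays, well separated but far below the background bound, so no fold is given. The change was -0.77 ± 0.07 (SE; adjusted p = 0.0015), and it passed with each of the 6 arrays left out in turn. The 4 other Fkbp genes changed by -0.20 to 0.20 and did not pass.

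Of 15 genes listed as ER residents, 6 were measured (Fkbp7, Dnajc10, Dnajc1, Fkbp14, Fkbp9 and Ppib). Of these 2 fell and 0 rose, where 5.72% of all genes were called lower and 6.47% higher. The median change of the 6 was -0.18. At an unadjusted p under 0.05 5 of the 6 were lower and 1 higher, against 11.4% of all genes lower and 17.6% higher. The list was written with earlier results of these data known, so its direction is no independent evidence. It may also leave out other ER members. Ppib, cyclophilin B, which assists collagen and other secreted proteins, was at 8.34, 8.28 and 8.25 with cadmium, against 8.48, 8.49 and 8.45 in control cells. It was lower on each cadmium array, by -0.18 ± 0.05 (SE; adjusted p = 0.061), and it passed with arrays centred (0.025) and after quantile normalization (0.028), where its changes were -0.23 and -0.32. Fkbp9 had the opposite sign, at 4.11 ± 0.06 in cadmium and 3.91 ± 0.02 in control cells (adjusted p = 0.051). The listed ER genes thus did not all share a sign, and only Ppib among them had its group means above the bound.

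Among the 9 Ppi symbols 1 passed, Ppip5k2, an inositol pyrophosphate kinase that the symbol rule includes. It was at 4.28, 4.13 and 4.17 with cadmium, against 4.71, 4.77 and 4.64 in control cells, a change of -0.51 ± 0.06 (SE; adjusted p = 0.0033). Its relative Ppip5k1 changed by 0.10 (adjusted p = 0.35). Of the cyclophilins, Ppid, a co-chaperone of Hsp90 like Fkbp4, was at 6.12 ± 0.04 in cadmium and 5.97 ± 0.08 in control cells and did not pass (adjusted p = 0.15). The 6 measured genes linked to splicing, Dnajc8, Dnajc17, Ppie, Ppig, Ppil3 and Ppil4, changed by -0.20 to 0.19, with 0 past the threshold. At an unadjusted p under 0.05 1 of the 6 was higher and 1 lower, against 17.6% and 11.4% of all genes.

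Bag proteins bind the ATPase domain of Hsp70. Bag1, which links Hsp70 to the proteasome, was at 6.33, 6.43 and 6.34 with cadmium, against 5.82, 6.04 and 6.16 in control cells. The groups did not overlap, and the change was 0.36 ± 0.09 (SE; adjusted p = 0.043), at least 1.13-fold. The call was lost with arrays centred (0.074), and without any 1 array except control replicate 3 (0.072 to 0.13). Bag2, an inhibitor of the chaperone-linked ubiquitin ligase CHIP, was at 5.25 ± 0.13 in cadmium and 5.11 ± 0.13 in control cells (adjusted p = 0.34). Bag4 changed by -0.11.

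None of the 5 remaining Hspb symbols passed. Hspbp1 was at 7.17 ± 0.03 in cadmium and 7.04 ± 0.09 in control cells (adjusted p = 0.21). The 4 others, Hspb2, Hspb6, Hspb7 and Hspb11, changed by -0.04 to 0.08. Of these 4, 0 passed an unadjusted p of 0.05 in the limma fit, where 17.6% of all genes were higher and 11.4% lower. The muscle-enriched Hspb2, Hspb6 and Hspb7 all lay below the background bound in both groups.

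**Figure D3:**
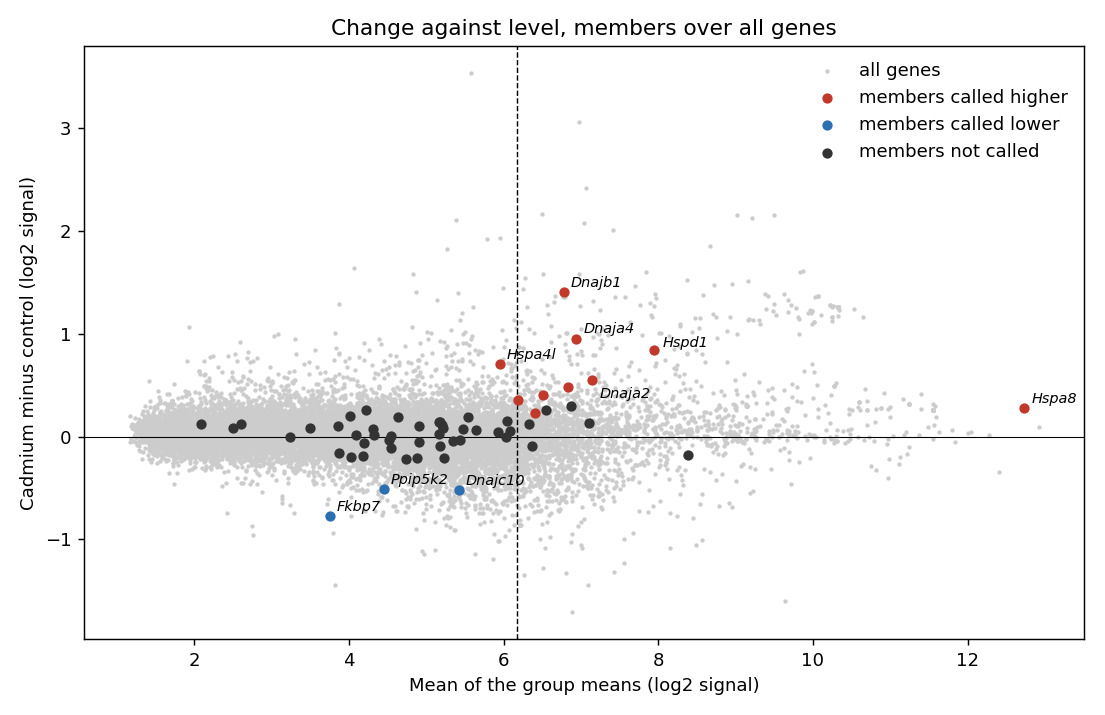
Change with cadmium (vertical axis, log2 signal) against the mean of the 2 group means (horizontal axis, log2 signal) for all 18884 genes (grey) and for members called higher (red), called lower (blue) and not called (black), with the background bound of 6.18 dashed. The red points lie near or above the bound and the blue points below it. Labels were left off Fkbp4, Fkbp1a, Bag1 and Dnajb2.

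Of 15 genes listed as widely described targets of heat shock factor, 7 were measured (Dnajb1, Dnaja4, Dnajb4, Hspa8, Hspa4l, Hspd1 and Fkbp4). Of these 6 rose, all except Dnajb4, where 6.47% of all genes were called higher. Dnajb4 lay far below the background bound, and the Hspa8 value is uncertain, as stated above. The median change of the 7 genes was 0.70, against 0.044 over all genes. The list was written with earlier results of these data known, so its direction is no independent evidence. By level, 2460 of all genes had a brighter group mean at or above the background bound, of which 19.3% were called higher and 16.2% lower in a fit of these genes alone. The 16 members among them include Dnajb1, Hspa4l and Bag1, which reached the bound only with cadmium, so nothing is read from their count.

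Of 48 listed partner genes outside the rule (other co-chaperones, prefoldins, heat shock factors, proteases of the mitochondrial matrix and the 4 genes the rule leaves out), 26 were measured, and 7 rose and 3 fell, where 6.47% of all genes were called higher and 5.72% lower. Without Hspb1, Hspb8, Bag3 and Hspa5, 4 of 22 rose and 3 fell. Those higher were Hsph1, Chordc1, Hspb1, Bag3, Hspb8, Hspe1 and Cryab. Cryab, the small heat shock protein alpha B-crystallin, was at 6.63 ± 0.09 in cadmium and 5.98 ± 0.14 in control cells, at least 1.36-fold higher (adjusted p = 0.0040). Clpx, the unfoldase of the mitochondrial protease ClpXP, was at 5.90 ± 0.07 in cadmium and 6.41 ± 0.11 in control cells, at least 1.18-fold lower (adjusted p = 0.0062). The transcription factor gene Hsf2 and Sec63, a J-domain protein of the ER translocon, made up the other decreases, at -0.30 and -0.325, both below the bound in both groups.

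**Figure D4:**
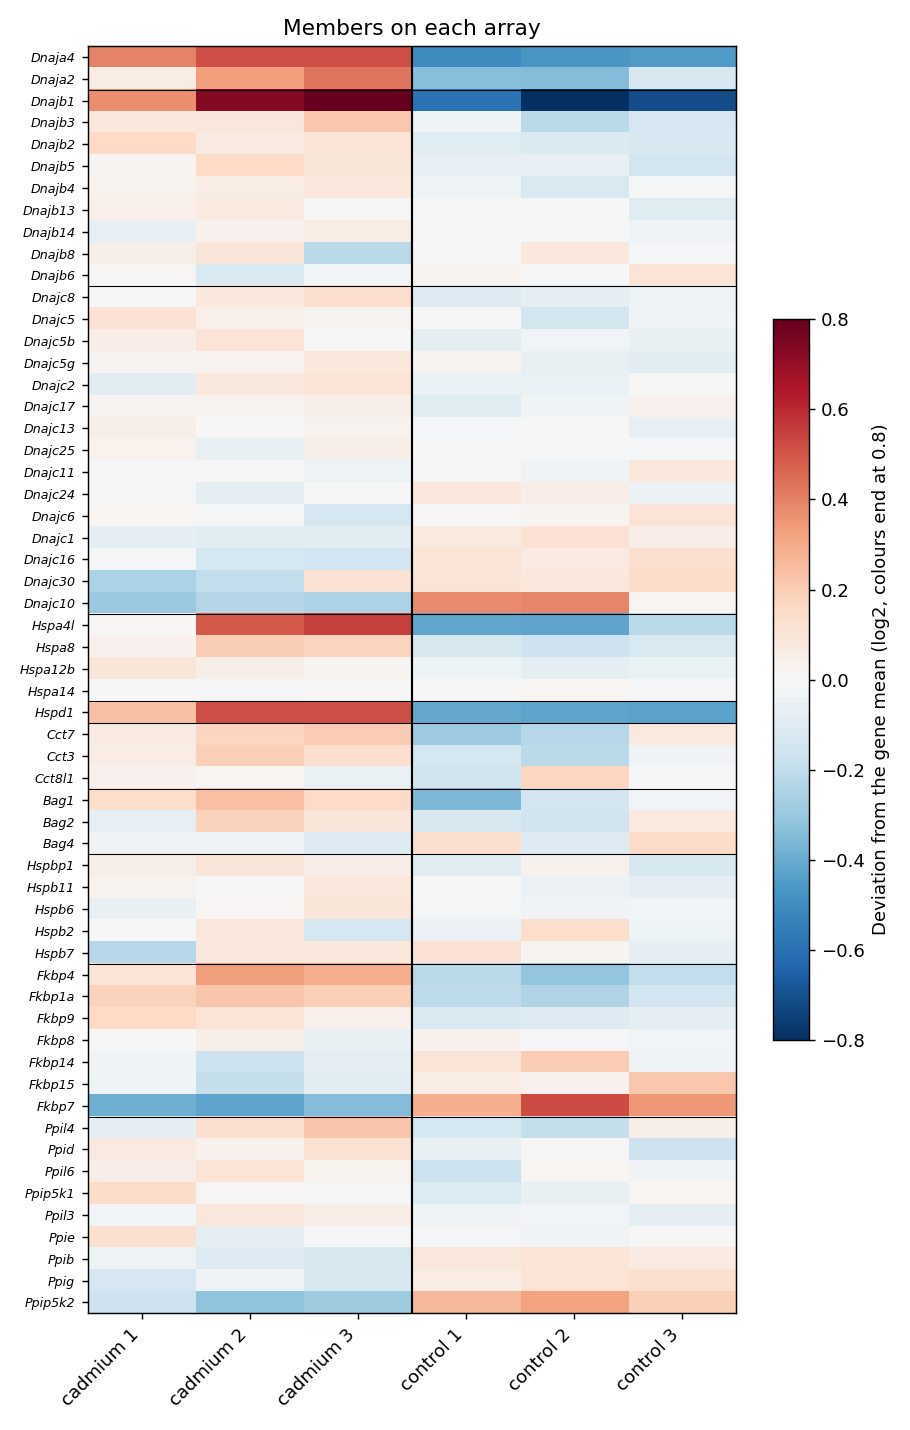
Deviation of each array from the gene's mean over all 6 arrays (colour, log2 signal, ending at 0.8) for the 58 members, with cadmium arrays on the left and control arrays on the right and families parted by lines. Cadmium replicate 1 is paler than cadmium replicates 2 and 3 for Dnajb1, Hspa4l, Hspd1 and Dnaja2.

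For 9 of the 10 genes called higher, all except Dnajb2, cadmium replicate 1 was the lowest of the cadmium arrays, as it was for 55.3% of all genes called higher. Control replicate 3 was the highest of the control arrays for 7 of the 10, and for 48.9% of all genes called higher. Over all 58 members cadmium replicate 1 was the lowest of its group for 28 and control replicate 3 the highest of its group for 26. The shares over all genes are not given, so nothing is read from these counts. With both arrays left out, a choice made after seeing the data, 13 members were called higher and 4 lower of 2896 genes called in all, where 8.3% of all genes were higher and 7.04% lower, and the change was 1.56 in Dnajb1, 0.94 in Hspa4l and 0.73 in Dnaja2. Bag2, Cct3, Cct7, Dnajc16 and Ppil4 were then added and Dnajb2 was lost.

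The count of decreases depended on how the arrays were scaled and weighted. As deposited 10 members were higher and 3 lower. With each array centred on its median 7 were higher and 7 lower, where 4.4% of all genes were higher and 7.96% lower, and after quantile normalization 10 were higher and 7 lower, where 4.9% of all genes were higher and 7.39% lower. Dnajc1, Dnajc16, Ppib and Ppig were added as lower under both. With limma array weights 15 were higher and 6 lower, where 9.92% of all genes were higher and 8% lower. Over all called genes the share higher was 53.1% as deposited, 35.6% with arrays centred and 39.9% after quantile normalization. Dnajb1, Dnaja4, Hspd1, Hspa4l, Dnaja2, Fkbp4 and Fkbp1a were called higher, and Fkbp7, Dnajc10 and Ppip5k2 lower, under all 3 scalings.

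**Figure D5:**
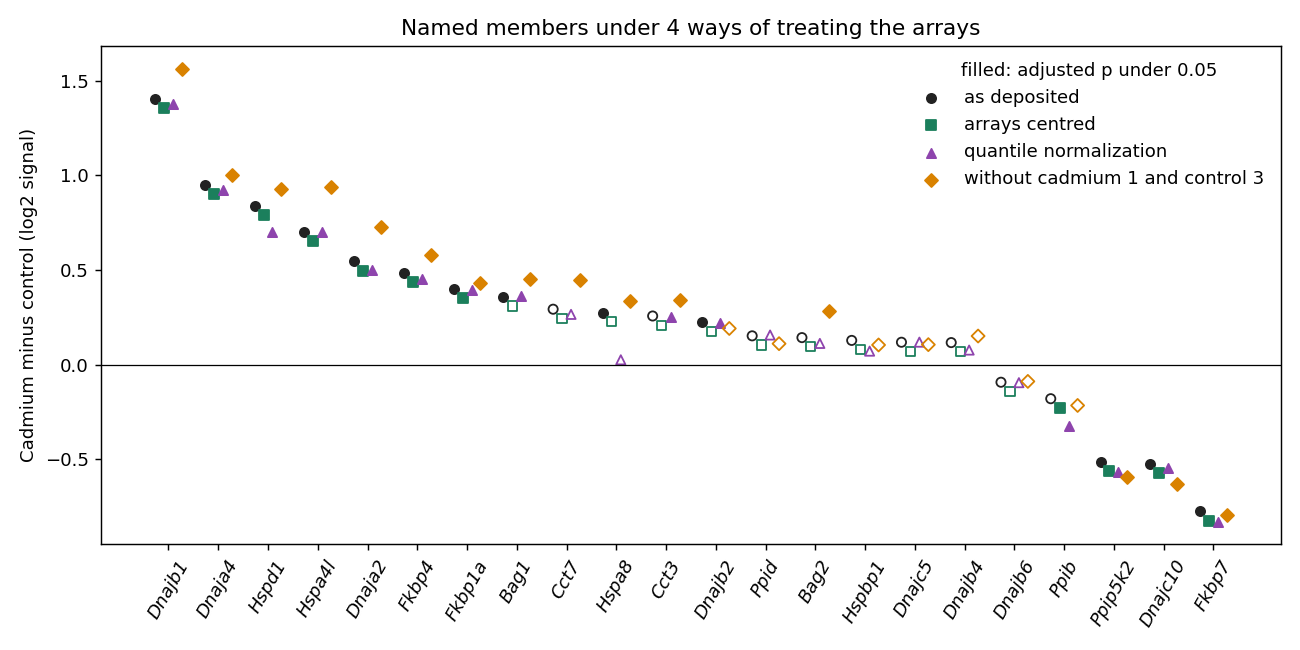
Change with cadmium (vertical axis, log2 signal) of the 22 members named by rule, with the values as deposited, with each array centred on its median, after quantile normalization, and without cadmium replicate 1 and control replicate 3. Filled symbols have an adjusted p under 0.05. Hspa8 is near 0 after quantile normalization and Dnajb1 is at 1.35 to 1.56 in all 4.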

How the data were processed

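Total RNA was labelled with biotin and hybridised to 6 one-colour arrays, per the labels. The deposited values are 1 per transcript cluster and array. The log2 scale is inferred from the range of the deposited values. No source used here says how background was corrected or which normalization and software were used. Of 39746 clusters, 19099 had 1 gene symbol in the platform annotation after updating through RefSeq (GRCm38.p6), 1046 had several and 19601 none. The brightest one-symbol probe stood for each gene, which gave 18884 genes. The titles gave each array its group and number.

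The test was two-sided, from lmFit and eBayes of limma 3.58.1 (R 4.3.3) with group as the only term. Its p-values were adjusted by Benjamini and Hochberg across the 18884 genes and called under 0.05, and the steps were tested on simulated data. Named were all members past the threshold, the brightest and lowest-p member of each family, fixed members, and up to 8 partners past the threshold with the lowest adjusted p, and other members are named where a count needs them. The members and lists were chosen with earlier results of these data known. Alternatives changed scaling, filters, probe choice, variance model, weights, block, arrays, threshold and minimum change. Figures were drawn with matplotlib 3.10.9.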

Additional observations from a re-analysis of the deposited data

How the results depend on the processing

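Dnajb1, Dnaja4 and Hspd1 kept their direction and their calls under all 18 alternatives, and Fkbp7 under the 16 in which it was tested. Calls not made with the deposited values and all arrays were made for Cct3 under 6 alternatives, Ppib under 4, Cct7 under 3 and Bag2 under 1. No gene named by the rule had a called value that changed sign. Fkbp1a, Fkbp4 and Ppip5k2 lost theirs only in the test against a minimum change of 0.26, Dnaja2, Hspa4l and Dnajc10 under 6 alternatives, Bag1 under 9, and Dnajb2 and Hspa8 under 11. The main values were 10 members higher, 3 lower, 2301 genes called in all and a median member change of 0.077. With arrays centred 7 members were lower and the median was 0.029, and after quantile normalization 7 and 0.046. With array weights 15 members were higher and 6 lower of 3384 genes called. Among genes with the brighter group mean at or above the background bound 875 were called in all, 19.3% of those tested higher and 16.2% lower. The median member change there was 0.33, against 0.041 over all genes tested. Dnajb1, Hspa4l and Bag1 reached the bound only with cadmium, so nothing is read from this median. In that fit 0 members were lower in limma (1 at an unadjusted p under 0.05), because Dnajc10, Fkbp7 and Ppip5k2 were not tested there. At a threshold of 0.01 5 members were higher and 2 lower of 864 genes called. Against a minimum change of 0.26 3 were higher and 1 lower of 428. With 1 array left out, 5 to 10 members were higher and 2 to 4 lower, with 1139 to 2360 genes called in all. The lowest count of members higher came without cadmium replicate 2 or 3 or control replicate 1 or 2. With the replicate number as a block 1386 genes were called, with 7 members higher and 3 lower. Same-numbered arrays deviated from their group means with correlations of -0.11, 0.06 and -0.11. Of the 6 arrays 0 correlated best with its own number, so the numbers were not taken to pair the arrays. Across groups, cadmium replicate 1 and control replicate 3 correlated best with each other. So did cadmium replicate 2 with control replicate 1, and cadmium replicate 3 with control replicate 2. A factor shared in this way by arrays of both groups was neither modelled nor tested. Signals below the background bound in both groups limit 42 of the 58 members, for which no fold is given.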
